A study of Mus musculus with 2 samples.

Results

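The genes described here are 53 ligands and receptors of axon guidance, taken by name from the Eph receptor, ephrin, semaphorin, plexin, neuropilin, netrin, netrin receptor, Slit and Robo families, out of 55536 annotated genes. They fall into 13 roles, from 7 EphA receptors to the pair of Robo receptors. Their RNA was measured by total RNA sequencing. The tissue was left cerebral cortex, from males of the B6CASTF1/J hybrid (C57BL/6J crossed with CAST/EiJ) at an age of 10 days. The design holds 1 group with 2 libraries, called replicate 1 and replicate 2, each from 300 ng of RNA. The labels number them as biological replicates and give each mouse a number of its own, but the donor identifier is the same for both, so it is not settled that they come from 2 animals and their spread may be partly technical. With no other group, age or treatment, no test between groups was possible and no p-value is given.

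Guidance ligands tell a growing axon where to turn, stop or branch, and each acts through receptors on the growth cone that reshape its cytoskeleton. Ephrins are anchored in the membrane of a neighbouring cell and bind Eph receptors, which are tyrosine kinases; class 3 semaphorins, netrins and Slits are secreted and act through neuropilin and plexin complexes, Dcc and Unc5 proteins, and Robo proteins. In the cortex after birth the same molecules are also known for roles in dendrite growth, synapse formation and the placing of thalamic and callosal axons.

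The libraries held 31254528 expected counts in replicate 1 and 30218308 in replicate 2, of which the 53 genes took 0.488% and 0.497%. Levels are TPM, the abundance of a transcript corrected for its length and scaled to a fixed total per library. Short 7SL RNAs took 27.3% and 27.5% of the TPM, so every other gene has a lower TPM than in data without them. Marker genes of cortical glutamatergic neurons, interneurons, astrocytes, oligodendrocyte precursors and microglia were all detected, and 0 of 3 cerebellar markers were. Choroid plexus markers summed to 8.71 TPM in replicate 1 and 311.3 in replicate 2, with Ttr accounting for 7.35 and 303.5, and striatal markers to 105.8 and 68.8. In such bulk tissue, fewer cells of a type and less RNA per cell cannot be told apart.

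Most of these genes were transcribed. At 1 TPM or more in both libraries, 52 of the 53 genes (98.1%) were detected, against 59.6% of all protein-coding genes, and the ligand gene Efna4 was the exception. The list was drawn up with levels known and leaves out Epha1, Epha2 and Ntn5, which were not detected, so nothing is read from the contrast with all genes; with 20 other members of these families added, 69 of 73 were detected. The 53 genes had a median level of 21.7 ± 0.63 TPM (SD, n = 2). The median of detected protein-coding genes was 16.4 TPM, and 34 of the 53 lay above that value. The 20 other family members had a median of 12.3 TPM, and nothing is read from these contrasts either. Levels of 50 TPM or more were reached by 8 genes and of 10 TPM or more by 41. A further 6 genes stood between 5 and 10 TPM and 6 below 5 TPM.

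Receptors and membrane-bound ligands headed the order of levels. The highest gene was Robo2, a Slit receptor (ENSMUSG00000052516.19, chromosome 16, 73891839 to 74411825, minus strand), at 113.08 TPM in replicate 1 and 113.10 in replicate 2. The next was Epha4, a receptor for ephrins of both classes (ENSMUSG00000026235.14, chromosome 1, 77367185 to 77515088), at 100.41 and 108.26 TPM. Behind them came Plxnd1, Epha5, Efnb3, Plxna1 and Sema7a. Down to Sema7a, no library of a gene reached the level of the gene above it, but Sema7a and Ephb6, the next in line, overlapped. Over all 52 neighbouring pairs in this order, the values of the libraries overlapped in 31 and stood apart in 21. Most of the middle of the order is thus not resolved. In a second quantification of the same libraries Robo2 and Epha4 were again the highest, at 173 and 147 TPM. There Plxnd1, at 98.2 TPM, lay below Epha5, Ephb6 and Efnb3, at 114, 114 and 105 TPM. The places below Epha4 therefore depend on the quantification.

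**Figure D1:**
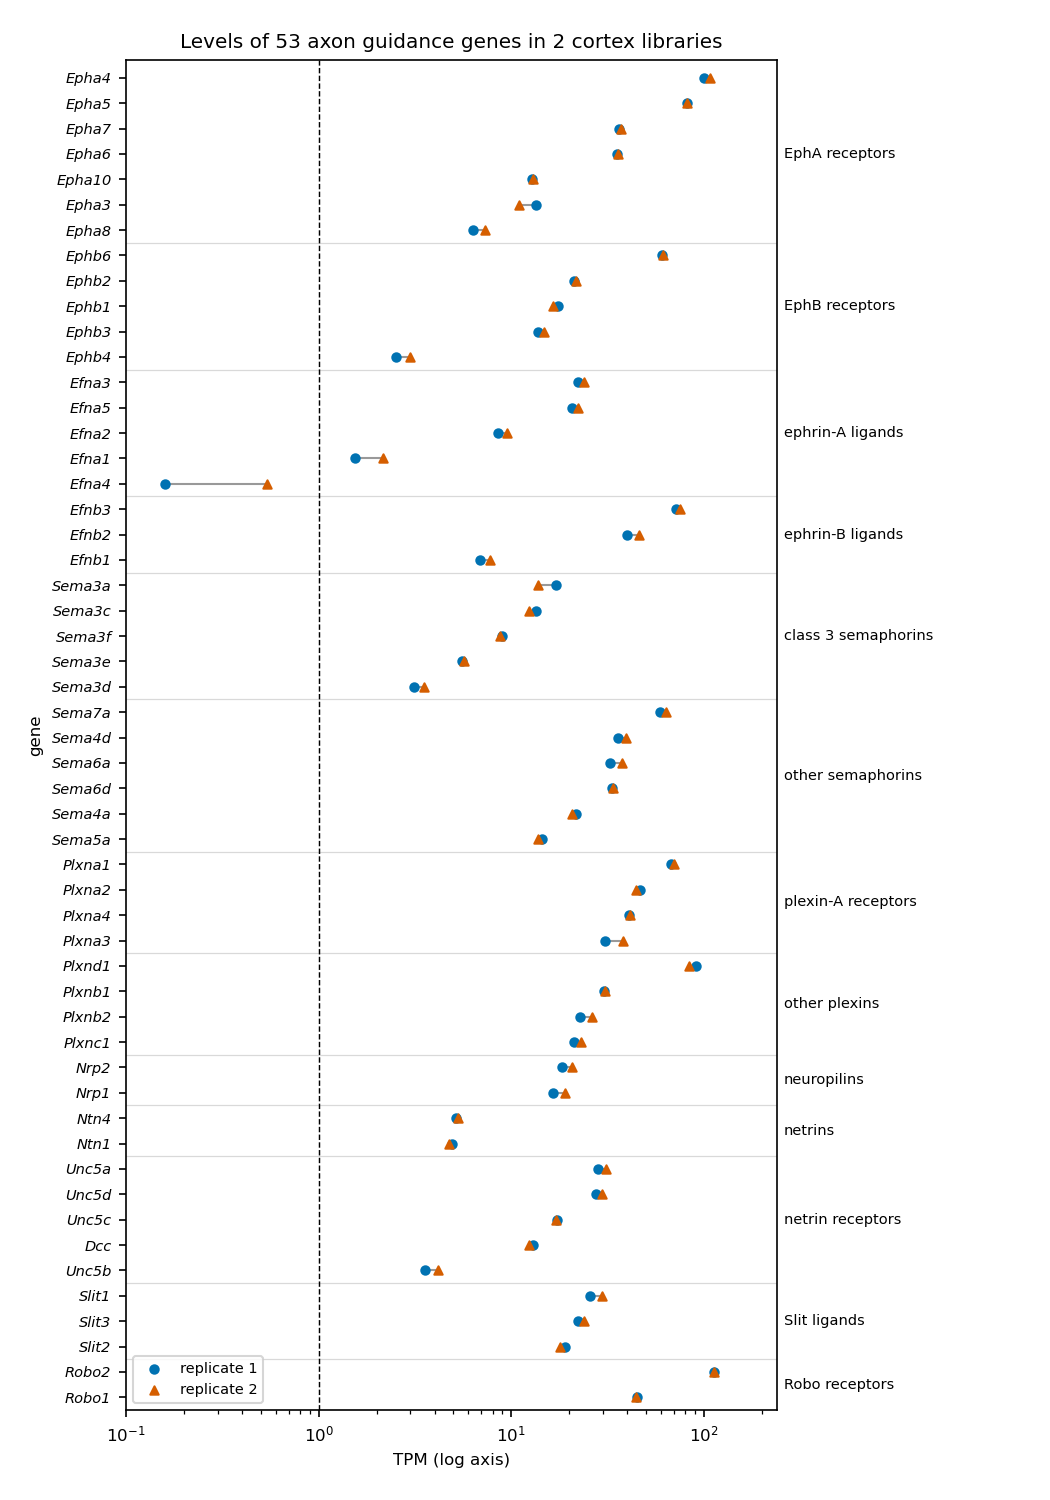
Level of each of the 53 genes in TPM on a log axis, grouped by role, with a circle for replicate 1 and a triangle for replicate 2; the dashed line marks the detection limit of 1 TPM. Efna4, at 0.16 and 0.54 TPM, is the only gene left of the line, and Robo2 at 113.08 and 113.10 TPM is the farthest to the right.

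EphA receptors, which mainly bind ephrin-A ligands, summed to 290 ± 6.02 TPM (SD, n = 2). Epha4 made up 35.9 ± 1.17% of it. Epha5, known for its part in topographic mapping, followed at 81.66 TPM in replicate 1 and 82.23 in replicate 2. Epha7 had 36.22 and 37.12 TPM and Epha6 had 35.29 and 35.86, narrowly apart. The lowest was Epha8, at 6.30 and 7.27 TPM from 597 and 661 counts. Between these lay Epha10, at 12.80 and 13.01 TPM, and Epha3, at 13.53 and 10.97, whose values overlapped.

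Among EphB receptors, which bind ephrin-B ligands, the highest level belonged to a member with an inactive kinase. Ephb6 (ENSMUSG00000029869.7, chromosome 6, 41605482 to 41620509) had 61.05 TPM in replicate 1 and 61.73 in replicate 2, 52.4 ± 0.12% of the EphB sum of 117 ± 1.17 TPM. Ephb2, a receptor of dendritic spines and crossing axons, had 21.21 and 21.73 TPM. Ephb4, best known from vessels, was the lowest at 2.53 and 3.00 TPM from 220 and 245 counts. Ephb1 and Ephb3 stood between, with means of 17.1 and 14.4 TPM.

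Ephb6 and Epha10 are known as Eph proteins without kinase activity, and both differ in the catalytic loop, where active kinases carry an aspartate. Other parts of the kinase domain were not compared. The loop of the coding strand is shown for the highest active EphA receptor, for Ephb2 as the active EphB receptor and for both inactive members, from the GENCODE M21 transcripts on mm10, 5′ to 3′. Capitals mark the codon of the catalytic aspartate in the active receptors and the codon at its place in the others. Positions are counted from 1 at the first printed base.
Epha4-201, chr1:77382956-77382991, minus strand: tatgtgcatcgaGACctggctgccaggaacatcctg
Ephb2-201, chr4:136659656-136659691, minus strand: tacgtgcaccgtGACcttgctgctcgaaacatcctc
Epha10-202, chr4:124914012-124914047, plus strand: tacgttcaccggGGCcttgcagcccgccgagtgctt
Ephb6-201, chr6:41618658-41618693, plus strand: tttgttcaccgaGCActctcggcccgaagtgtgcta
Relative to Ephb2-201, the capital codon of Epha10-202 carries A14G and that of Ephb6-201 carries A14C and C15A, while Epha4-201 has the same codon. Over the 36 bases, Epha4-201 differs from Ephb2-201 at 8 positions, Epha10-202 at 12 and Ephb6-201 at 15. The 2 kinase-inactive genes held 18.2 ± 0.17% of the TPM of the 12 listed Eph receptor genes (SD, n = 2), 18.4% in replicate 1 and 18.1% in replicate 2. Most of this was Ephb6, since Epha10 made up only 4.44 ± 0.041% of the EphA sum.

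Ephrin-A ligands, which are held in the membrane by a lipid anchor, were low beside their receptors. Efna3 had 22.24 TPM in replicate 1 and 24.00 in replicate 2, and Efna5, a repellent in topographic maps, had 20.62 and 22.10. These values overlapped, and the pair made up most of the ephrin-A sum of 55.8 ± 3.68 TPM. Efna2 averaged 9.06 ± 0.68 TPM. Efna1 was near the detection limit, at 1.55 and 2.17 TPM from 44 and 59 counts, and Efna4 had 0.16 and 0.54 TPM from 5 and 16 counts. Efna1, Efna3 and Efna4 lie in a row on the minus strand of chromosome 3 (89271733 to 89338028 in all), with gaps of 32.8 and 10.4 kb and 0 protein-coding genes between them, yet Efna3 lay far above its neighbours.

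Ephrin-B ligands, which cross the membrane and can signal back into their own cell, were higher. Efnb3, known as a midline barrier to corticospinal axons, had 71.73 TPM in replicate 1 and 75.36 in replicate 2. Efnb2 had 40.01 and 46.32 TPM, and Efnb1 was the lowest of the 3 at 6.90 and 7.79. The ranges of the 3 genes stood apart.

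Class 3 semaphorins, the secreted members of their family, were low and ordered without a dominant gene. Sema3a, a repellent of cortical axons and an attractant of their apical dendrites, had 17.04 TPM in replicate 1 and 13.86 in replicate 2. Sema3c, an attractant of callosal axons, had 13.45 and 12.36 TPM, and Sema3d was the lowest at 3.13 and 3.54. Sema3f and Sema3e averaged 8.85 and 5.65 TPM. Sema3d, Sema3a and Sema3e follow each other on chromosome 5 with gaps of 536 and 423 kb, which hold 0 and 1 protein-coding genes.

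The listed membrane-bound semaphorins summed to 203 ± 7.79 TPM, against 46.2 ± 2.79 TPM for the secreted class 3. The highest was Sema7a, which is lipid-anchored and promotes axon growth, at 59.45 TPM in replicate 1 and 63.90 in replicate 2. Sema4d, a ligand of Plxnb1, had 35.90 and 39.35 TPM, and Sema6a and Sema6d averaged 35.1 and 33.5, overlapping in turn. Sema4a averaged 21.2 TPM, and Sema5a was the lowest at 14.51 and 13.72.

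All 8 listed plexins were detected. Plexin-A receptors, which carry the signal of class 3 semaphorins bound to neuropilins and of class 6 semaphorins directly, summed to 190 ± 6.02 TPM. Plxna1 had 67.44 TPM in replicate 1 and 69.90 in replicate 2, Plxna2 had 46.56 and 44.72, and Plxna3 was the lowest at 30.62 and 38.24. Plxna4 averaged 41.1 TPM. Of the other plexins, Plxnd1, the receptor of Sema3e, had 90.64 and 84.01 TPM and alone held 53.0 ± 2.63% of that role's TPM. Its level stood well above that of its ligand, whose libraries had 5.57 and 5.72 TPM. Plxnb1 followed at 30.42 and 30.71 TPM, and Plxnc1, the receptor of Sema7a, was the lowest at 21.18 and 23.17, overlapping Plxnb2.

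The neuropilins, which bind class 3 semaphorins and vascular growth factors, were close to each other. Nrp2 had 18.40 TPM in replicate 1 and 20.74 in replicate 2, and Nrp1 had 16.46 and 19.05. Their values overlapped between libraries, although Nrp2 was higher within each.

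The netrins Ntn1 and Ntn4 were low, at 10.1 ± 0.035 TPM together; with Ntn3, Ntn5 and the membrane-anchored netrin-G genes Ntng1 and Ntng2, 6 netrin genes summed to 87.2 ± 0.78 TPM, most of it from Ntng2. Ntn4, which is found in basement membranes, had 5.17 TPM in replicate 1 and 5.27 in replicate 2, and Ntn1, the classic attractant acting through Dcc, had 4.92 and 4.77. Of their receptors, Unc5a had 28.07 and 31.17 TPM, Unc5d had 27.59 and 29.53, and Unc5b was the lowest at 3.56 and 4.19. Unc5 proteins mediate repulsion by netrin. Dcc, an attractive receptor, had 12.96 and 12.33 TPM, or 13.8 ± 1.00% of the TPM of the 5 listed netrin receptor genes. Unc5c averaged 17.2 TPM. The netrin receptor Neo1, which is not among the 5, had 81.87 TPM in replicate 1 and 81.93 in replicate 2. Shares within the 5 genes therefore do not describe all netrin receptors.

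The Slits, secreted repellents, had similar levels. Slit1 had 25.69 TPM in replicate 1 and 29.79 in replicate 2, Slit3 had 22.11 and 23.96, and Slit2 was the lowest at 19.04 and 17.99. The ranges of the 3 genes stood apart, but by little. Their receptors differed more, as Robo1 had 45.13 and 44.70 TPM and Robo2 held 71.6 ± 0.14% of the Robo sum of 158 ± 0.29 TPM. Robo1 and Robo2 are neighbours on chromosome 16, 846 kb apart with 0 protein-coding genes between them.

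Over the listed genes, ephrin-A ligands, netrins and Slits summed to less than their receptors, and the ratio varied widely. Ephrin-A ligands reached 0.192 ± 0.0087 of the EphA level (SD, n = 2), from 55.8 and 290 TPM. Netrins reached 0.110 ± 0.0045 of the level of Dcc and the Unc5 genes, from 10.1 and 91.9 TPM. Slits reached 0.439 ± 0.023 of the Robo level. Each of these 3 ratios was under 1 in both libraries and in both quantifications, and also with the other family members of the pathway added, at 0.191 for ephrin-A, 0.0846 for netrins without the netrin-G genes, and 0.396 for Slits.

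For the 11 listed semaphorins and 8 listed plexins the direction depended on which genes were summed. The listed semaphorins reached 0.704 ± 0.0035 of the plexin level, from 249 and 354 TPM. With 9 further semaphorins and Plxnb3 added, an alternative chosen after the data had been seen, the sums were 429 ± 13.9 and 358 ± 5.25 TPM and the ratio turned to 1.20 ± 0.021. Sema6b, at 57.4 TPM, was the highest of those added.

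The ephrin-B and class 3 semaphorin families gave ratios near or above 1. Ephrin-B ligands stood at 1.06 ± 0.055 times the EphB level, with 1.02 in replicate 1 and 1.10 in replicate 2. In the second quantification they stood at 0.967 ± 0.11, so the order of ligand and receptor is not resolved. Epha4, a receptor for ephrins of both classes with a mean of 104 TPM, was counted with EphA only. The ratio of ephrin-B ligands to EphB is therefore not one to all their receptors. Class 3 semaphorins stood at 1.246 ± 0.19 times the neuropilin level, with 1.38 and 1.11. Their sum includes Sema3e, whose receptor is Plxnd1, at 5.57 and 5.72 TPM, and a ratio without it was not computed. The class 3 sum was 48.16 TPM in replicate 1 and 44.21 in replicate 2, against 34.86 and 39.79 for the neuropilins. In replicate 2 the higher sum of the ligands therefore rests on counting Sema3e, and the direction is not resolved. Ligands from other regions also reach cortical axons, so a ratio compares RNA levels within this tissue and nothing else.

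**Figure D2:**
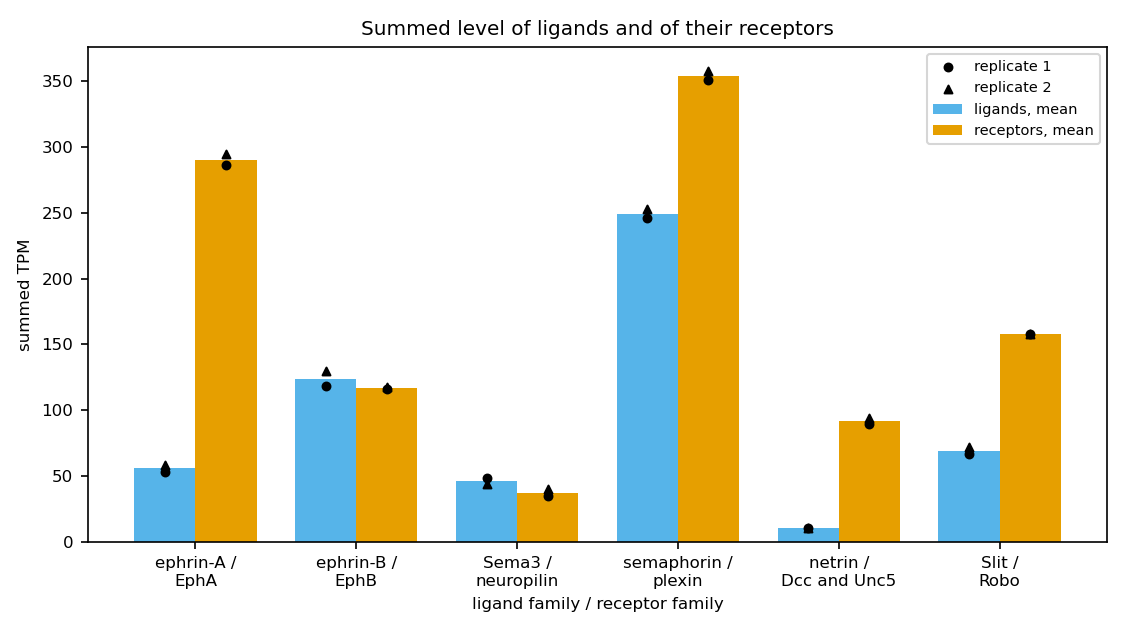
Summed TPM of the ligands (left bar) and receptors (right bar) of 6 families over the listed genes; bars are means, circles replicate 1 and triangles replicate 2. Receptors exceed ligands most for netrins (10.1 and 91.9 TPM) and ephrin-A with EphA (55.8 and 290 TPM). Ephrin-B with EphB are nearly level (124 and 117 TPM), with Epha4 counted in EphA only.

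Transcript tables gave a view of which proteins these levels could encode. Transcripts were classed by coding length: full for at least 90% of the gene's longest complete coding sequence, shorter, incomplete in the annotation, nonsense-mediated decay, or without coding sequence. The line of 90% was chosen after the data had been seen. The median share of full transcripts was 82.1% of a gene's TPM, and 44 of the 53 genes had at least 50% in them. Shares by class were not computed over all protein-coding genes, so counts by class do not set these genes apart from others. In 49 of the 52 detected genes (94.2%) both quantifications named the same top transcript, against 78.3% of detected protein-coding genes. The exceptions were Epha5, Efna1 and Slit2. Of the 53 genes, 4 have a single annotated transcript, for which the quantifications cannot differ. The list was also drawn up with levels known, so nothing is read from the contrast with 78.3%. For Slit2 the top transcripts were 2 near-equal full ones, Slit2-208 at 21.2 ± 1.20% in the first quantification and Slit2-216 at 16.5% in the second. For Efna1, with few counts, the first quantification gave all TPM to Efna1-201 of 205 codons, and the second gave 92.3% to Efna1-202 of 142 codons.

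By this line, 3 genes had 20% or more of their TPM in transcripts classed as shorter, namely Epha7, Epha5 and Efna5. The count depends on the rule. Epha10-201, with 292 codons and 20.2% of its gene's TPM, was classed as full because Epha10-202, with 861 codons, is annotated as incomplete. Unc5a-202, with 842 codons against 898 in Unc5a-201, lay above the line of 90%. In Epha7 (ENSMUSG00000028289.12, chromosome 4, 28813131 to 28967499, plus strand) the shorter transcripts were the majority. Epha7-202, with 610 codons, held 36.7 ± 6.02% of its TPM (41.0% in replicate 1 and 32.5% in replicate 2), Epha7-204, with 626 codons, 22.3 ± 4.61%, and the full-length Epha7-201, with 998 codons, 23.2 ± 1.252%. The shorter transcripts share the first 599 codons with the full one, then end before the kinase domain. Their ends are printed because they show where a receptor without a kinase departs from the full receptor; capitals mark bases after the last base shared, and each region spans 1 intron.
Epha7-201, chr4:28943349-28947587, plus strand: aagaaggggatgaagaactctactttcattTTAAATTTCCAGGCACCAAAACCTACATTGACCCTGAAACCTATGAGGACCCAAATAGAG
Epha7-202, chr4:28943349-28946250, plus strand: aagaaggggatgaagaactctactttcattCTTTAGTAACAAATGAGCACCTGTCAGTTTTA
Epha7-204, chr4:28943349-28966602, plus strand: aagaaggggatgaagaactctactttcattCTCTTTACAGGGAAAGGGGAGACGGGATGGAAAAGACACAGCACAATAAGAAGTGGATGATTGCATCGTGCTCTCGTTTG
The last 2 sequences run to the last codon before the stop, with 32 bases of their own in Epha7-202 and 80 in Epha7-204. Truncated Epha7 proteins are known in mouse from work on the neural tube, where they change the response to ephrin-A ligands.

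Read through the kinase loop, Epha7 stood apart from the other Eph genes. Complete transcripts without the loop held 59.0 ± 1.41% of its TPM (SD, n = 2; 60.0% in replicate 1 and 58.0% in replicate 2), and transcripts with it held 29.1 ± 0.63%. In the second quantification the shorter transcripts held 52.8%. Elsewhere, complete transcripts without the loop held 20.2 ± 1.22% in Epha10, 7.10 ± 0.014% in Epha3 and 6.86 ± 1.42% in Ephb1, and 0 in the other 8 Eph genes. In Epha10 the loop-bearing Epha10-202, with 861 codons and 64.9 ± 1.90% of the TPM, is annotated as incomplete, and the transcript without the loop is Epha10-201, with 292 codons.

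**Figure D3:**
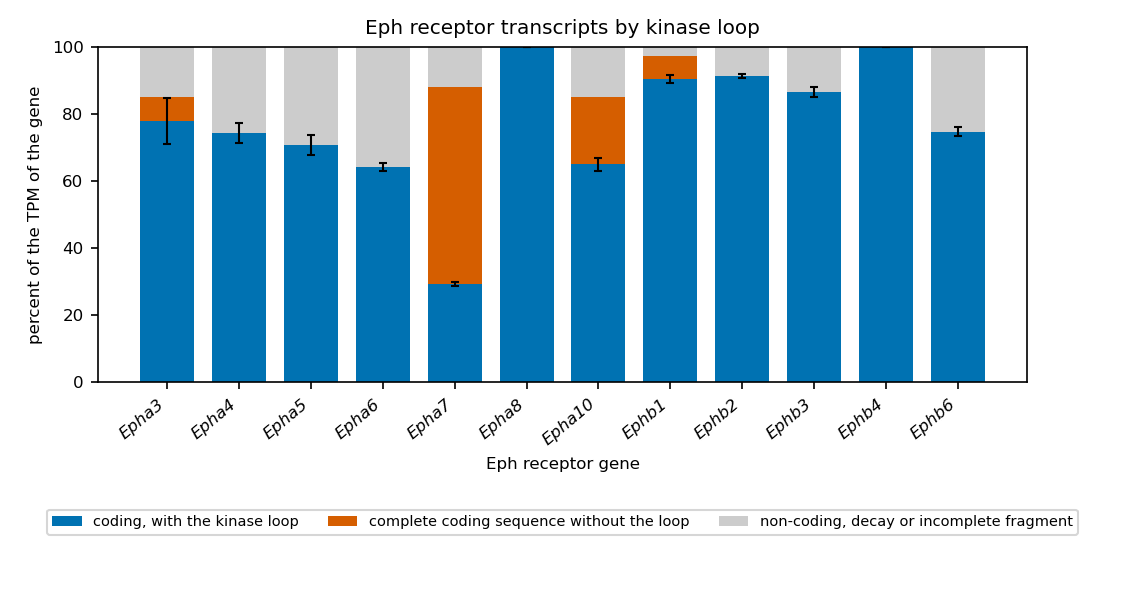
Percent of each Eph gene's TPM in coding transcripts with the kinase loop (error bars, SD of 2 libraries), in complete coding transcripts without it, and in other transcripts. Epha7 is the only gene in which the transcripts without the loop (59.0%) exceed those with it (29.1%).

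Epha5 was divided differently. Its 3 shorter transcripts held 49.1 ± 5.51% and its full ones 21.6 ± 2.61%, but all 6 coding transcripts carry the kinase loop. Epha5-202, Epha5-201 and Epha5-204, with 894, 876 and 819 codons, held 16.8 ± 4.06%, 16.5 ± 0.19% and 15.8 ± 1.64%, and Epha5-203, with 1006 codons, held 11.9 ± 3.86%. The top transcript of the first quantification was the non-coding Epha5-207 at 20.1 ± 2.27%, while the second named Epha5-204 at 19.7%.

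In Efna5, Efna3 and Unc5a, 2 annotated forms differed by a short in-frame segment. Efna5-202, with 201 codons, lacks 27 codons of the 228-codon Efna5-201 and held 32.7 ± 0.67% of the gene's TPM (21.1 ± 4.39% in the second quantification). Efna3-203 lacks 26 codons of Efna3-201, beginning at the same codon 162, and held 12.3 ± 6.68%. Unc5a-202 lacks 56 codons of Unc5a-201 and held 88.7 ± 2.24% of the gene's TPM, against 8.07 ± 2.29% for Unc5a-201, so the shorter form was the main one. The segments are printed whole, in capitals, as the coding strand of the longer transcript that the shorter one lacks.
Efna5-201, chr17:62613316-62613396, minus strand: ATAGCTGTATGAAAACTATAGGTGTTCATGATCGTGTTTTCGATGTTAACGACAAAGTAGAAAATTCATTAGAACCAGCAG
Efna3-201, chr3:89315808-89315885, minus strand: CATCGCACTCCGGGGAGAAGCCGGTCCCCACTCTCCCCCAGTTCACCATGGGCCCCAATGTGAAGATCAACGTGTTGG
Unc5a-201, chr13:54997193-54997360, plus strand: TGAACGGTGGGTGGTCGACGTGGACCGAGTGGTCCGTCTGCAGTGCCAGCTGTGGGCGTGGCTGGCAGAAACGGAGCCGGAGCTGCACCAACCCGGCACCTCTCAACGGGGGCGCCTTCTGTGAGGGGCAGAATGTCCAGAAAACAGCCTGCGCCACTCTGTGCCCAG
Each segment lies in 1 exon. That of Unc5a falls in the part of the receptor outside the cell that holds its thrombospondin repeats, and those of the ephrins lie after the receptor-binding domain.

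Slit1 and Nrp2 were divided between forms that end differently. Slit1-203, with 1458 codons, held 49.9 ± 3.43% and Slit1-201, with 1531 codons, 47.8 ± 0.18%, and they share their first 1452 codons. Nrp2-204 held 37.3 ± 4.59%, Nrp2-205 held 29.4 ± 1.246% and Nrp2-202 held 20.2 ± 1.44%. Nrp2-204 and Nrp2-205 share 808 codons and then part, and the forms of this receptor are known to differ in their membrane-spanning and cytoplasmic ends. The last codons before the stop are shown beside those of Nrp1-201, which held 83.8 ± 0.60% of its gene, with the final 3 codons in capitals; in Nrp1 they are known to bind a PDZ domain protein.
Nrp1-201, chr8:128502782-128502811, plus strand: ctgaacccacagagtaattacTCAGAGGCG
Nrp2-204, chr1:62815605-62815634, plus strand: atcaatcatcagaagtgctgcTCGGAGGCA
Nrp2-205, chr1:62795957-62795986, plus strand: aagctagagcaagagcggggcTCGCACTGC
The ends of Nrp2-204 and Nrp2-205 come from different places in the gene, as their coordinates show. Of Dcc, whose forms were not compared in sequence, Dcc-202 with 1447 codons held 62.9 ± 4.75% and Dcc-201 with 1427 codons 29.8 ± 3.66%.

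Part of the level of some genes lay in transcripts that are non-coding or annotated as incomplete. In Plxna3 transcripts without coding sequence held 53.5 ± 3.12% of the TPM, and in Sema4a 31.7 ± 0.86%. Sema4d-204, an incomplete transcript of 185 codons, was the top transcript of Sema4d at 38.3 ± 1.55%. In Robo1 the incomplete Robo1-205, with 133 codons, held 28.4 ± 0.71%. Robo1-206, which held 45.0 ± 3.19%, is also annotated as incomplete but has 1621 codons, more than the 1612 of the full Robo1-201. Counted over coding transcripts that are complete or have at least 500 codons, a definition added after the data had been seen, the median of the 53 genes was 17.5 ± 0.95 TPM, and Sema4a kept the smallest share of its level over all transcripts, 43.0%.

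The 2 libraries differed little in these genes. Of the 51 genes with a mean of 100 expected counts or more, 0 differed by more than 1.5-fold in TPM between replicate 2 and replicate 1, where 1.24% of 12835 genes with such counts did, so a count of 0 is near this background. With 1 library per replicate and 1 group, no test applies. The log2 ratios of replicate 2 to replicate 1 ran from -0.30 to 0.32, with a median of 0.04 that equalled the median of all genes, 0.04.

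The widest ratios were those of Plxna3, Epha3 and Sema3a. Plxna3 had 38.24 TPM in replicate 2 and 30.62 in replicate 1, a log2 ratio of 0.32, but its counts, 2647 and 2459, gave a CPM ratio (counts scaled to equal library totals) of 1.11 (95% interval 1.05 to 1.18). The effective length behind its TPM is an average over transcripts, and the share without coding sequence was 55.7% in replicate 2 and 51.3% in replicate 1. Epha3 had 10.97 TPM in replicate 2 and 13.53 in replicate 1, with a CPM ratio of 0.866 (0.794 to 0.944), and Sema3a had 13.86 and 17.04 TPM, with a CPM ratio of 0.899 (0.837 to 0.965). The intervals cover counting error only and leave out other differences between the libraries. They also treat reads as independent molecules, which they are not.

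Intervals lay above 1 in 16 of the 51 genes, against 15.4% of all genes, and below 1 in 6, against 8.81%; intervals are narrower for genes with more counts. In TPM, 37 of the 51 were higher in replicate 2 (72.5%, against 62.1% of all genes) and 14 lower. This split depended on the scaling, with 27 higher after TMM scaling, 26 with DESeq2 size factors, 35 with the spike-in total and 34 in the second quantification. The median log2 ratio of all genes moved as well, from 0.039 in TPM to -0.003 with TMM and -0.004 with DESeq2 factors. It was 0.043 with the spike-in total and 0.035 in the second quantification. Striatal and choroid plexus markers differed between the same libraries by the values given above. The 4 markers of myelinating oligodendrocytes summed to 137.8 TPM in replicate 2 and 167.5 in replicate 1, all 4 lower in replicate 2, and their median log2 ratio was -0.40. The part of these cell types in the ratios of the guidance genes was not tested. The 2 genes with fewer counts were Efna1, with 59 counts in replicate 2 and 44 in replicate 1, and Efna4, with 16 and 5. The CPM ratio of Efna4 was 3.31 (1.16 to 11.6), too wide to give a size.

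**Figure D4:**
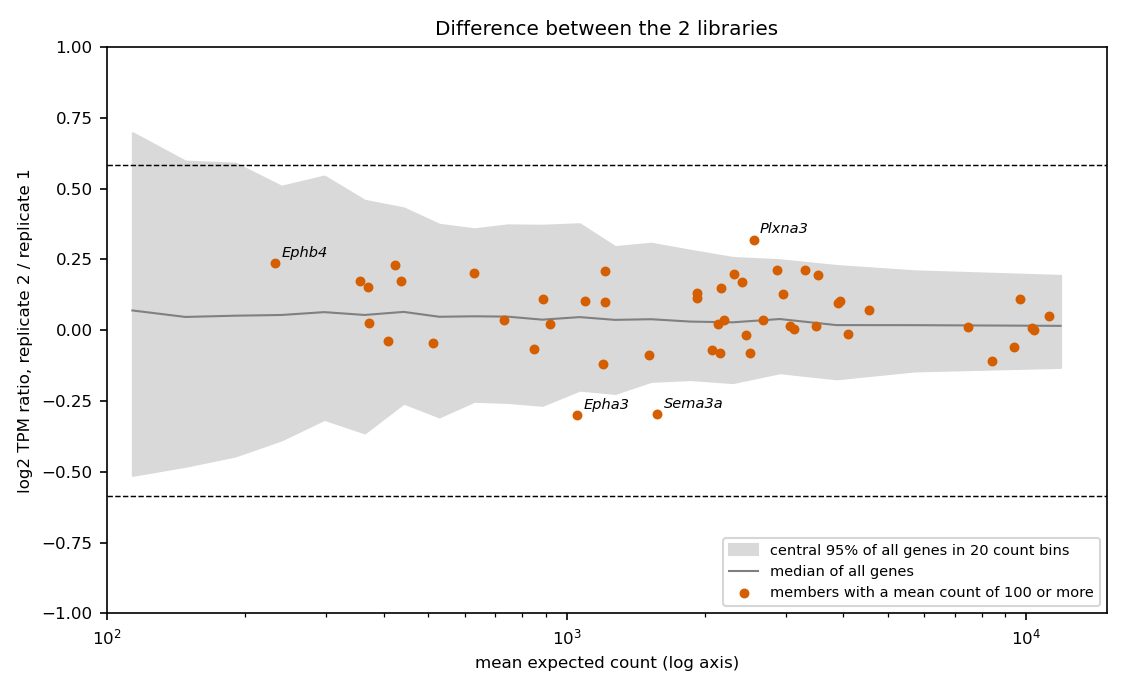
Log2 TPM ratio of replicate 2 to replicate 1 against the mean expected count (log axis) for the 51 genes with 100 counts or more, over the central 95% of all genes with such counts (grey band); dashed lines mark 1.5-fold. All points lie between -0.30 and 0.32, inside the dashed lines, and Plxna3, Epha3 and Sema3a leave the band.

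The second quantification, made from the reads with an index, gave higher TPM throughout but nearly the same order. Its TPM was 1.10 to 2.06 times that of the first for the 53 genes, with a median of 1.48, and the Spearman correlation of the levels across genes, which are not independent replicates, was 0.993. The extremes were Sema4a, with 43.6 TPM in the second and 21.2 in the first, and Plxnb2, with 27.0 and 24.5. Ephb6 also moved more than most, to 114 TPM in the second against 61.4 in the first.

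**Figure D5:**
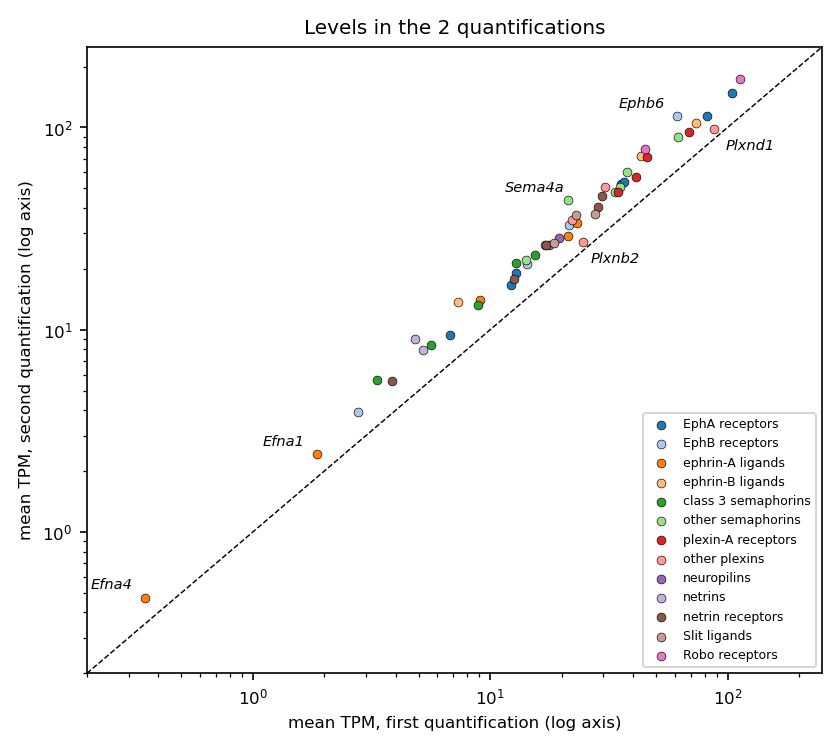
Mean TPM of the 53 genes in the second quantification against the first, on log axes, coloured by role; the dashed line marks equal values. All points lie above the line, Sema4a farthest (43.6 and 21.2 TPM) and Plxnb2 nearest (27.0 and 24.5 TPM).

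The remaining genes of the pathway were given by lists. Of 20 other members of the same families 17 were detected, with a median of 12.3 TPM; the netrin receptor Neo1 led at 81.9 TPM, followed by Sema6b at 57.4 and Ntng2 at 56.5, and Epha1 was the lowest at 0.14. Of 18 other cues and co-receptors 18 were detected, with a median of 22.3 TPM, led by the adhesion molecules Cntn1, Nrcam and L1cam at 213, 211 and 206 TPM, with Draxin the lowest at 1.62. Of 33 genes that carry the signal inside the cell 33 were detected, with a median of 58.2 TPM. Dpysl2, Dpysl3 and Crmp1, which encode collapsin response mediator proteins of the semaphorin pathway, led at 437, 394 and 374 TPM, and Vav3 was the lowest at 1.35. Between the libraries only Robo4, an endothelial member, passed 1.5-fold in TPM among the 16, 17 and 33 genes of these lists with enough counts. It had 4.55 TPM in replicate 2 and 2.98 in replicate 1, from 280 and 231 counts. Of all genes with such counts 1.24% passed, so 1 gene is near this background.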

How the data were processed

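Total RNA of 2 libraries of 1 group was analysed. Per the file headers and labels, the authors deposited a first quantification from transcriptome alignments, with expected counts and TPM per gene and transcript, the percent of a gene's TPM held by each transcript, and a second quantification with estimated counts and TPM per transcript, summed here by gene, on mm10 with GENCODE M21. The sources used here name no program, version or strand setting, so reads of overlapping antisense genes may not be separated. Both parental alleles were counted together on a reference from C57BL/6J. The bounds deposited with the posterior mean TPM were not used.

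Genes were found by symbol, and those with per-library values were the 2 highest and the lowest of each role, any past 1.5-fold, Epha10, Ephb6 and those with differing or shorter transcripts. The members and lists were chosen with earlier results of these data known. Detection was 1 TPM or more in both libraries. Log2 ratios are replicate 2 over replicate 1 with 0.1 TPM added, for genes whose expected counts averaged at least 100. The method was tested on counts simulated with sampling noise only, which cannot give the rate of false calls in these libraries. CPM ratios carry 95% Clopper-Pearson intervals. The libraries differed by more than sampling noise (chi-square per degree of freedom 5.05 over 18515 genes). Scaling used edgeR 4.0.16, DESeq2 1.42.0 and the spike-ins; Python 3.11.15, pandas 2.3.3 and scipy 1.17.1 did the rest. Coding sequences were read from the GENCODE M21 transcripts. Alternatives were the second quantification, other detection limits, pseudocounts, count filters and scalings, leaving out each library, and, added after seeing the data, long coding transcripts alone and the other members of the families.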

Additional observations from a re-analysis of the deposited data

How the results depend on the processing

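No paired analysis was possible because there is only 1 group. With 2 libraries an SD is a rough measure, and low genes are limited by counts, as for Efna4 with 5 and 16. The number of genes detected stayed between 51 and 52 under every alternative run. The median level was 31.7 TPM in the second quantification, 44.6 rescaled over nuclear protein-coding genes and 17.5 over long or complete coding transcripts. In the second quantification the ligand to receptor ratio was 0.967 for ephrin-B, 0.801 for the listed semaphorins, 0.125 for netrins and 0.403 for Slits, and the kinase-inactive share was 21.7%. Posterior mean TPM gave 0.719 for semaphorins. Long or complete coding transcripts gave 0.247 for ephrin-A, 1.16 for ephrin-B, 0.692 for semaphorins and 0.492 for Slits, and a kinase-inactive share of 18.0%. With the other family members added, the ratio of semaphorins to plexins turned to 1.20, and it was 0.0846 for netrins and 0.396 for Slits, by the genes summed. The only setting that moved the count past 1.5-fold was no count filter, which gave 1 gene, Efna4. The cause of the other shifts was not tested. Leaving out each library in turn gave 21.2 to 22.1 TPM for the median, 0.186 to 0.198 for ephrin-A, 1.02 to 1.10 for ephrin-B, 1.11 to 1.38 for class 3 semaphorins, 0.701 to 0.706 for the listed semaphorins, 0.106 to 0.113 for netrins, 0.422 to 0.455 for Slits, 18.1 to 18.4% for the kinase-inactive share, 52 to 52 genes detected and 46 to 48 genes with the same top transcript.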
